A study of Mus musculus with 4 samples.

Results

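The regions described here are the short stretches of open chromatin at gene ends that were called in every heart of the study. They were selected on the deposited peak calls themselves. The peaks of the 4 libraries on chromosomes 1 to 19 and X were merged wherever they overlapped by at least 1 bp, which gave 53140 regions. Of these, 16568 (31.2%) held a peak in all 4 libraries, and 7743 of those were shorter than 1000 bp and lay within 1 kb of the annotated start or end of a GRCm38 protein-coding gene. These 7743 regions are the members. The calls, the width and the position were what chose them, so these are given as a description and without a test.

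The assay was ATAC-seq, which uses the transposase Tn5 to cut and tag open DNA, on nuclei of whole hearts of newborn (P0) C57BL/6 mice. There were 2 wild-type (WT) hearts and 2 hearts labelled edKO, which lacked the retinoid X receptor genes for both the alpha and the beta form (RXR alpha, RXR beta) in cardiomyocytes only, so the nuclei of the other cell types of the edKO hearts still carried both genes. Each library came from 1 heart, and the driver of the cardiomyocyte deletion is not given in the sources used here. In whole hearts, fewer nuclei with an open site and less opening per nucleus cannot be told apart.

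A promoter in use is held free of nucleosomes over a short stretch at and just upstream of the transcription start, and this stretch is the usual site of the strongest Tn5 cutting near a gene. Promoters of genes that every cell needs mostly lie in CpG islands and hold short recognition sequences for factors such as NF-Y, SP and KLF proteins, ETS proteins and NRF1, whereas many promoters of tissue-specific genes carry a TATA box. RXR binds DNA as a pair with other nuclear receptors, among them the PPAR and LXR families, at repeats of a short half-site, and in heart muscle its PPAR partners are known for control of fatty acid oxidation.

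The promoter pieces below show what members look like at the sequence level. They were chosen, after their values were seen, among the strongest members, the strongest members of gene groups and the members that differed most in rank between the genotypes. Each runs from 170 bases before to 30 bases from the start site annotated in RefSeq (GRCm38.p6) and is written 5′ to 3′ on the strand of the gene. Capitals mark matches, on either strand, to the 17 motifs given further down.
Adss, chr1:177796480-177796679, minus strand: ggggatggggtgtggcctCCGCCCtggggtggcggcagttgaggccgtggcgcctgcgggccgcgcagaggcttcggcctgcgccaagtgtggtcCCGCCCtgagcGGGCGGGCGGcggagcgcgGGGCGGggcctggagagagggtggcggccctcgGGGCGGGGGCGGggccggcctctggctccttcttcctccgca
Rps21, chr2:180257209-180257408, plus strand: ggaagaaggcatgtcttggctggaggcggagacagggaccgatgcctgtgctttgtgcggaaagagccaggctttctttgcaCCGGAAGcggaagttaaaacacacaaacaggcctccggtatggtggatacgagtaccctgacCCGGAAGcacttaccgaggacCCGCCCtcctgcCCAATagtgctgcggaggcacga
Eif4a1, chr11:69672394-69672593, minus strand: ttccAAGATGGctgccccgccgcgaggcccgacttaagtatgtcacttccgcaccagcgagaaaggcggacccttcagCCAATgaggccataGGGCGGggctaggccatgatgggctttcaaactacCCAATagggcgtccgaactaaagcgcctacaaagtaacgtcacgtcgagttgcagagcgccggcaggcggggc
Sdhb, chr4:140961101-140961300, plus strand: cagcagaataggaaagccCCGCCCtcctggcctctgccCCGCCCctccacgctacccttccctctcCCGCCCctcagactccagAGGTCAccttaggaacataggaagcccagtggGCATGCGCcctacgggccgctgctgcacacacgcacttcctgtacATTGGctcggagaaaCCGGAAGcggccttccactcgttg
Mdh2, chr5:135778479-135778678, plus strand: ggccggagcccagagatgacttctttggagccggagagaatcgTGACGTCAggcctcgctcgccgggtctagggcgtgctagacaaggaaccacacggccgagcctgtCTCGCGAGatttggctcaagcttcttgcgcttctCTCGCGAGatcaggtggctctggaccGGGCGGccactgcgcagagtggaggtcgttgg
E2f3, chr13:29986034-29986233, minus strand: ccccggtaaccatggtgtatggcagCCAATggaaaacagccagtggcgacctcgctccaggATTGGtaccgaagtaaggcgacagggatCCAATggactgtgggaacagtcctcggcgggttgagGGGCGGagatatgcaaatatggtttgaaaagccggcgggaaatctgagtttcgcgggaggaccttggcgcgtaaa
Nppb, chr4:147985730-147985929, plus strand: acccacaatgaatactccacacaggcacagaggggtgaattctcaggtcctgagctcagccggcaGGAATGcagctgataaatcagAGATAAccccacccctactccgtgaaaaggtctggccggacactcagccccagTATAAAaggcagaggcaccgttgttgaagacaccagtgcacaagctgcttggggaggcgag
Pdk4, chr6:5496249-5496448, minus strand: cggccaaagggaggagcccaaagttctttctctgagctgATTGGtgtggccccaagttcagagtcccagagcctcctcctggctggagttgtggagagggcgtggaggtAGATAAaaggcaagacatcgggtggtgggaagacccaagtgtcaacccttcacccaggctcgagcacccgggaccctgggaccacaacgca
Slc25a34, chr4:141623805-141624004, minus strand: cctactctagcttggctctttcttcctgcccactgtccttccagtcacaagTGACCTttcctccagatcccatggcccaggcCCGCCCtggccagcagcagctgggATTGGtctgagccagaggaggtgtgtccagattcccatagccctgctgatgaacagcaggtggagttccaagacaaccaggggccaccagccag
Pparg, chr6:115360974-115361173, plus strand: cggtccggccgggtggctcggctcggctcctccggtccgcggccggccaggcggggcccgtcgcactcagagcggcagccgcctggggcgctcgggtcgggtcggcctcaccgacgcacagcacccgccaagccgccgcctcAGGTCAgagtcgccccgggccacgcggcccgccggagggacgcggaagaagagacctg

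In the piece of Adss, which encodes adenylosuccinate synthase of AMP synthesis, the capitals are 7 matches to GGGCGG or its reverse complement, the first at −152 and the last at −6 bp from the start site. Rps21, a protein of the small ribosomal subunit, holds CCGGAAG at −88 and at −26 bp. Sdhb, the iron-sulfur subunit of succinate dehydrogenase, holds matches to 5 different motifs, among them GCATGCGC at −54 bp. E2f3, an activator of S-phase genes, holds CCAAT at −145, −109 and −81 bp, and the summits of its peaks lay at −148, −153, −156 and −153 bp in WT 1, WT 2, edKO 1 and edKO 2. Mdh2, mitochondrial malate dehydrogenase, holds CTCGCGAG at −62 and at −28 bp. Nppb, the B-type natriuretic peptide gene, is the printed piece with a TATA box, with TATAAA at −31 bp, and its summits lay between −135 and −142 bp in the 4 libraries. In Pdk4, whose product shuts off pyruvate dehydrogenase, the summits lay at −253, −280, −218 and −282 bp, upstream of the printed piece.

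Members were 256 to 999 bp wide, with a median of 681 bp and quartiles of 550 and 811 bp. The gene end itself lay inside the region in 6433 members (83.1%). Just inside the width limit stood the region of Rps6ka3 (chromosome X, 159255124 to 159256122, 999 bp), a ribosomal S6 kinase gene, with the authors' −log10 p at 43.7, 70.1, 51.3 and 47.2 in WT 1, WT 2, edKO 1 and edKO 2. Just outside stood the region shared by Atxn7 and Thoc7 (chromosome 14, 13960864 to 13961863, 1000 bp), with 9.72, 11.9, 4.59 and 16.6. The inner of these regions was thus the stronger in every library. This is 1 region on each side and says nothing general about the limit. Gene-end regions of 1000 bp or more that were called in all 4 libraries had median −log10 p of 64.3, 64.3, 45.2 and 31.9. The medians of members were 37.8, 40.9, 25.9 and 18.1, lower in each library.

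Short regions at gene ends were called in all 4 libraries far more often than short regions elsewhere. Of 12631 short gene-end regions, 61.3% were called in all 4, against 18.9% of 22056 short regions inside gene bodies and 17.1% of 16619 short intergenic regions. The share over all merged regions was 31.2%. Broad gene-end regions of 1000 bp or more were called in all 4 in 99.5% of 1487 cases.

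The members lay at the starts of genes rather than at their stops. Strand was known through the RefSeq promoter table for 17273 of 21627 protein-coding genes. With it, 6098 members (78.8%) lay at a gene start, 220 (2.84%) at a gene stop only, and 1425 (18.4%) at a gene whose strand the table does not give. Of those at a start, 666 (8.60% of members) had starts on both strands within 1 kb, the layout of a divergent promoter, and 1315 members had at least 2 genes within 1 kb.

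Strength differed between these positions. Strength is given as the percentile of the authors' −log10 p within a library among the 16568 regions called in all 4, where 100 is the strongest, so that every library was ranked over the same regions. Members at starts on both strands had a median percentile of 70.9, 71.5, 69.8 and 69.7 in WT 1, WT 2, edKO 1 and edKO 2. Members at a start on 1 strand had 61.8, 61.1, 61.7 and 62.6. Members at a gene stop only had 29.7, 27.5, 32.3 and 30.9. The order of these 3 positions was the same in each of the 4 libraries.

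In total 8453 protein-coding genes, 39.1% of 21627, had a member at an end. A further 1658 genes had only a broad region called in all 4 libraries, 2773 had regions called in some libraries, and 8743 had no call at either end. On the X chromosome 25.3% of 966 genes had a member, the lowest share of the 20 chromosomes, and the highest was 46.4% of 1042 genes on chromosome 8. No label gives the sex of the animals.

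The libraries differed in size and strength, and the members followed this. The lists held 35279, 38809, 27473 and 27142 peaks in WT 1, WT 2, edKO 1 and edKO 2, and the members' peaks made up 22.5%, 20.4%, 29.1% and 29.6% of them. Over members, −log10 p had medians of 37.8, 40.9, 25.9 and 18.1, and the median fold enrichment 9.62, 10.1, 8.97 and 6.79. Both edKO lists were shorter, and edKO 2 had the weakest members. The authors' values scale with depth and background, so the strength of single regions is compared between libraries below by rank only. The −log10 p values printed for some members are the deposited values. A change in them from one library to another is not read as a difference. A rank difference at one member is a description and no measure of a genotype effect. The order of the 7743 members by −log10 p was similar in all pairs of libraries, with Spearman's rho from 0.888 to 0.942, which is a description over the same regions in every library.

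Members were stronger than the other short regions called in all 4 libraries. Members had median percentiles of 60.5, 59.7, 60.6 and 61.1 in WT 1, WT 2, edKO 1 and edKO 2. That of 4172 short gene-body regions was 34.8, 36.3, 35.5 and 33.4, and that of 2840 short intergenic regions was 33.6, 34.1, 32.3 and 30.3. The gap to gene-body regions was 25.4 percentile points ± 1.74 (SD, n = 4 libraries), and that to intergenic regions 27.8 ± 2.22. Members were the higher class in 4 of 4 libraries in both comparisons. The exact sign-flip permutation test, two-sided, gave p = 0.125 for each, the smallest that 4 libraries allow, so the design cannot pass 0.05.

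**Figure D1:**
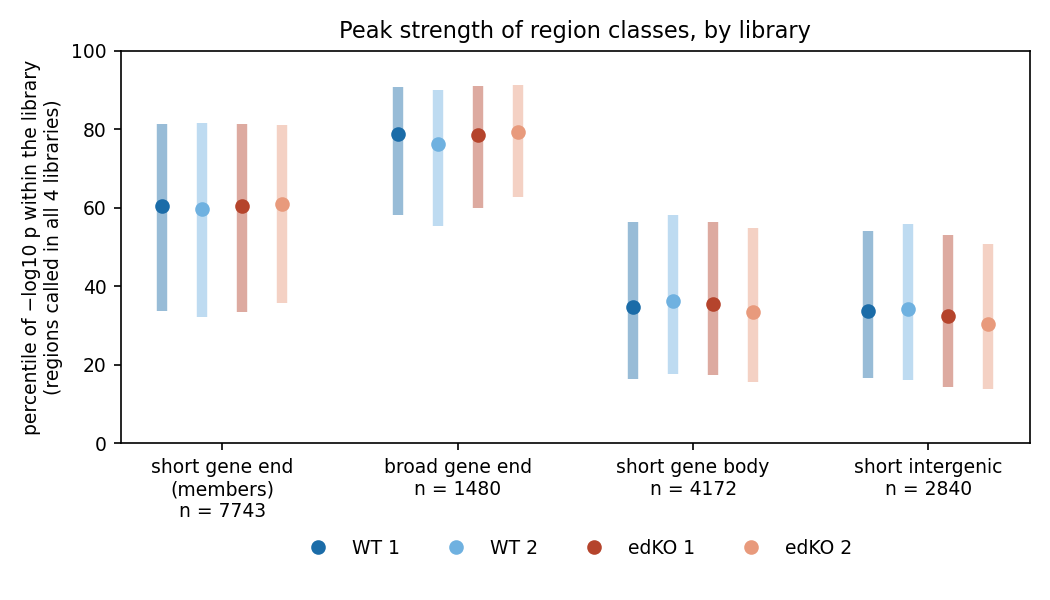
Median (points) and interquartile range (bars) of the percentile of −log10 p within each library, for 4 classes of regions called in all 4 libraries. The 7743 members sit near 60 in every library, above the short gene-body and intergenic regions near 30 to 36 and below the 1480 broad gene-end regions.

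The gap was smallest in the narrowest regions. Among regions of 200 to 399 bp, 448 members stood 3.03 points above 770 gene-body regions, with gaps of 0.81 to 4.76 in the 4 libraries. At 400 to 599 bp the mean gap was 11.8 points, at 600 to 799 bp 18.3 and at 800 to 999 bp 17.8. The narrowest members were therefore hardly stronger than gene-body regions of like width, and the width classes from 400 bp up each gave a gap in the same direction in 4 of 4 libraries. Members were wider than the others, with a median of 681 bp against 515 bp in gene bodies and 517 bp between genes.

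The gap to gene-body regions was 24.5 ± 1.59 points in WT and 26.3 ± 1.81 in edKO hearts (SD, n = 2 each). The difference of 1.82 points had p = 0.667 by the exact permutation test, two-sided, where 2 against 2 libraries cannot give less than 0.333. For intergenic regions the gap was 26.2 ± 0.929 points in WT and 29.5 ± 1.76 in edKO, a difference of 3.30 with p = 0.333 by the same exact test. Neither comparison can pass 0.05 in this design.

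The strongest members are given as values. They were picked on their strength in the 4 libraries, and the rule itself asked for an overlapping peak in each. Tpst2, which encodes a tyrosylprotein sulfotransferase, had a region at its start (chromosome 5, 112276185 to 112276974) with the authors' −log10 p at 265, 307, 273 and 185 in WT 1, WT 2, edKO 1 and edKO 2. It held percentiles of 99.9 or higher in each library. Next came the region between Kdm1b, a histone demethylase gene, and Tpmt, thiopurine methyltransferase (chromosome 13, 47043026 to 47043742), with 231, 294, 210 and 187. It is a divergent promoter, as are the next 2, at Samd4b and Gmfg and at Ap2a1 and Tsks. Adss (chromosome 1, 177796183 to 177796974) was the fifth, with 235, 260, 192 and 182. Ankrd50, Chchd7 with Plag1, Adam9 with Tm2d2, Camsap1 and Dop1b completed the 10 strongest. The weakest member by mean percentile was at Sulf2, an endosulfatase gene, with 5.3, 5.2, 4.2 and 4.9.

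Of the 220 members at a gene stop only, the strongest was at Lars2, mitochondrial leucyl-tRNA synthetase (chromosome 9, 123461711 to 123462278), with −log10 p at 229, 146, 81.0 and 94.7. The percentiles there were 99.8, 95.7, 91.9 and 98.1, with WT 1 the highest. Sec14l2, Ctdsp1, Fam120a and Ankrd39 followed, with mean percentiles of 95.2, 93.8, 90.8 and 89.6. These 5 stood far above the median of their position.

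The summits of members lay just upstream of transcription starts. The rule did not use the summit, but it asked for a gene end within 1 kb. Summits were read in the 4657 members that met a single promoter window of the RefSeq table. That window runs from 250 bp before to 50 bp after the start. The choice itself favours summits near and upstream of the start, and its part in the values here was not measured. The median summit was 45, 44, 43 and 39 bp upstream of the start in WT 1, WT 2, edKO 1 and edKO 2. The summit was upstream of the start in 76.9%, 75.9%, 74.2% and 68.1% of these members, and within 150 bp of it in 84.3%, 83.6%, 83.6% and 80.4%. The library edKO 2 had the flattest distribution and also the lowest median −log10 p, and the part of depth in this was not tested.

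**Figure D2:**
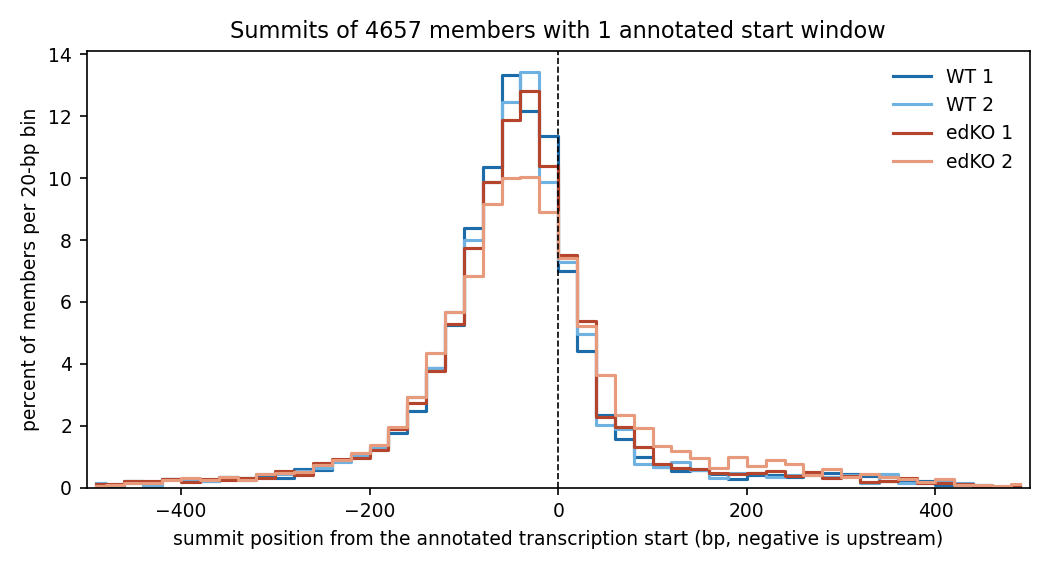
Share of 4657 members (y axis, percent per 20-bp bin) by the position of the peak summit from the annotated transcription start (x axis, bp), 1 line per library. All 4 lines peak upstream of the start, with medians of 39 to 45 bp upstream, and the line of edKO 2 is the lowest at its top.

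Summits repeated more closely between hearts in members than in other regions. The median distance from a library's summit to the mean summit of the other 3 was 23.0, 22.3, 24.3 and 29.3 bp in members and 28.0, 27.3, 29.3 and 36.7 bp in short gene-body regions. The gap was −5.58 bp ± 1.17 (SD, n = 4), with members closer in 4 of 4 libraries and p = 0.125 by the exact sign-flip permutation test, two-sided, the smallest possible. Over the 4 libraries the summits of a member spanned a median of 64 bp, against 77 bp in gene bodies and 81 bp between genes. This span was 47 bp in the stronger members and 88 bp in the weaker ones, split at the median strength. The weaker members thus had a wider span than both other classes. The classes were not matched for strength, and its part in the summit distances was not tested. All 4 summits fell within 50 bp of each other in 39.5% of members.

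Most genes of the basic machinery of the cell had a member at an end. All lists here were chosen with earlier results of these data known, and their counts are read beside the 39.1% of all protein-coding genes. Of the cytosolic ribosomal protein genes, 70 of 79 had a member, and of the mitochondrial ribosomal protein genes 63 of 78. Subunits and assembly factors of complex I had 39 of 49, and complexes II to V had 36 of 57, with 11 more under a broad region. The mediator list had 25 of 30, with Med12l, Med13l and Med26 under a broad region, Med25 called in some libraries and Med10 without a call. Proteasome genes had 33 of 46, translation initiation factors 39 of 55, the spliceosome 34 of 48, RNA polymerase II and its general factors 36 of 53, and the chaperonin that folds actin and tubulin 7 of 10. The RNA polymerase II list was drawn by gene symbol and also holds Taf1a, Taf1b, Taf1c and Taf1d, which are factors of RNA polymerase I. Cell cycle genes had 25 of 32. These counts depend on the width limit of the rule. With a limit of 750 bp, which left 5344 of the 21627 genes with a member, 41 of the cytosolic ribosomal genes, 25 of complex I, 20 of complexes II to V, 16 of the mediator, 23 of the RNA polymerase II and 16 of the cell cycle list had one. The chaperonin list fell to 2 of 10, a share below that of all genes.

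Within these lists the strongest members were near the top of all regions. Rps21 (chromosome 2, 180256763 to 180257596) stood at percentiles 97.6, 98.9, 97.8 and 95.3 in WT 1, WT 2, edKO 1 and edKO 2. Mrps14, of the small mitochondrial ribosomal subunit, stood at 99.4, 99.8, 97.9 and 99.6. Eif4a1, the RNA helicase that unwinds the ends of mRNAs for the ribosome, stood at 98.1, 98.1, 97.0 and 96.5. Each of these 3 was thus near the top in all 4 hearts. Among cell cycle genes E2f3 stood at 98.9, 99.0, 97.9 and 98.9, cyclin E1 (Ccne1) at 98.4, 98.0, 98.4 and 98.4, and Cdk4 at 98.2, 96.3, 97.7 and 98.6. For complex I the strongest was Ndufa6, at 97.9, 97.6, 93.9 and 93.9.

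Lists of energy metabolism genes also lay above the share of all genes. The TCA cycle list had members at 15 of 18 genes. With the width limit of 750 bp it had 2 of 18, a share below the 5344 of 21627 genes at that limit. Among the others, Ogdh lay under a broad region and Idh2 was called in some libraries only. Mdh2 stood at percentiles 99.3, 98.3, 98.6 and 98.3. The glycolysis list had 16 of 23, led by enolase 1 (Eno1) at 95.8, 98.6, 98.2 and 98.2. Fatty acid uptake and oxidation had 29 of 41, with a median mean percentile of 73.6 against 62.3 over all genes with a member, and 16 of 41 with the limit of 750 bp. This median was higher in the chaperonin (82.1), translation initiation (76.4) and cell cycle (75.9) lists and lower in the TCA cycle list (62.6). Acadm, medium-chain acyl-CoA dehydrogenase (chromosome 3, 153944163 to 153945059), was the strongest of the fatty acid members, with the authors' −log10 p at 227, 255, 173 and 163 and percentiles of 99.8, 99.8, 99.6 and 99.9. Cd36, the main fatty acid transporter of heart muscle, was called in some libraries only.

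Genes of the contractile apparatus and calcium handling had members at 23 of 32 genes. Of the other 9, 1 lay under a broad region, 4 were called in some libraries and 4 had no call. Tnni3, cardiac troponin I, stood at percentiles 86.3, 90.8, 86.5 and 89.2, and the ventricular light chain gene Myl2 at 84.9, 89.9, 83.4 and 90.2. Nppb stood at 79.9, 85.0, 92.4 and 84.6. Atp2a2, the calcium pump of the sarcoplasmic reticulum, lay under a broad region. Cardiac transcription factors had members at 12 of 23, the strongest at Hey2 with 96.8, 95.5, 98.3 and 98.5 and at Tbx20 with 93.0, 97.1, 95.1 and 96.3. Nkx2-5, Hand1 and Mef2c had no call at either end.

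Marker lists of the other cells of a heart ranged from 0% to 50% of genes with a member, beside the 39.1% of all protein-coding genes. Endothelial markers had members at 3 of 16 genes, fibroblast markers at 4 of 12, smooth muscle and pericyte markers at 4 of 10 (40%), epicardial markers at 3 of 6 (50%), neuronal and Schwann markers at 3 of 10 and erythroid markers at 2 of 8. Of 11 immune markers none had a member, and Spi1 alone had a region called in some libraries. With a −log10 p of at least 10 asked of every peak, the epicardial and the smooth muscle and pericyte lists had 0 genes with a member, the fibroblast list 2, and the endothelial, neuronal and erythroid lists 1 each. Without edKO 2 the endothelial list had 5, and without WT 2 the erythroid list had 1. These members were weak next to the 62.3 of all genes with a member. Their median mean percentile was 26.7 in the endothelial, 31.4 in the fibroblast, 14.2 in the smooth muscle and 8.57 in the epicardial list. The endothelial members lay at Kdr, Tie1 and Esam, and Flt1 lay under a broad region. Tie1 was the strongest of the 3, with a mean percentile of 57.8. The pan-endothelial markers Pecam1 and Tek had no call at either end. The fibroblast members lay at Col1a1, Col1a2, Fn1 and Gsn, with Gsn the strongest at a mean percentile of 54.7. The fibroblast markers Col3a1 and Dcn had no call. Genes of other tissues served as a floor. Members lay at 1 of 1110 olfactory receptor genes, 2 of 355 vomeronasal receptor genes and 0 of 56 keratin-associated protein genes. The region at Vmn1r4, with percentiles of 89.4, 88.6, 91.5 and 90.9, also lay within 1 kb of Nt5c3.

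**Figure D3:**
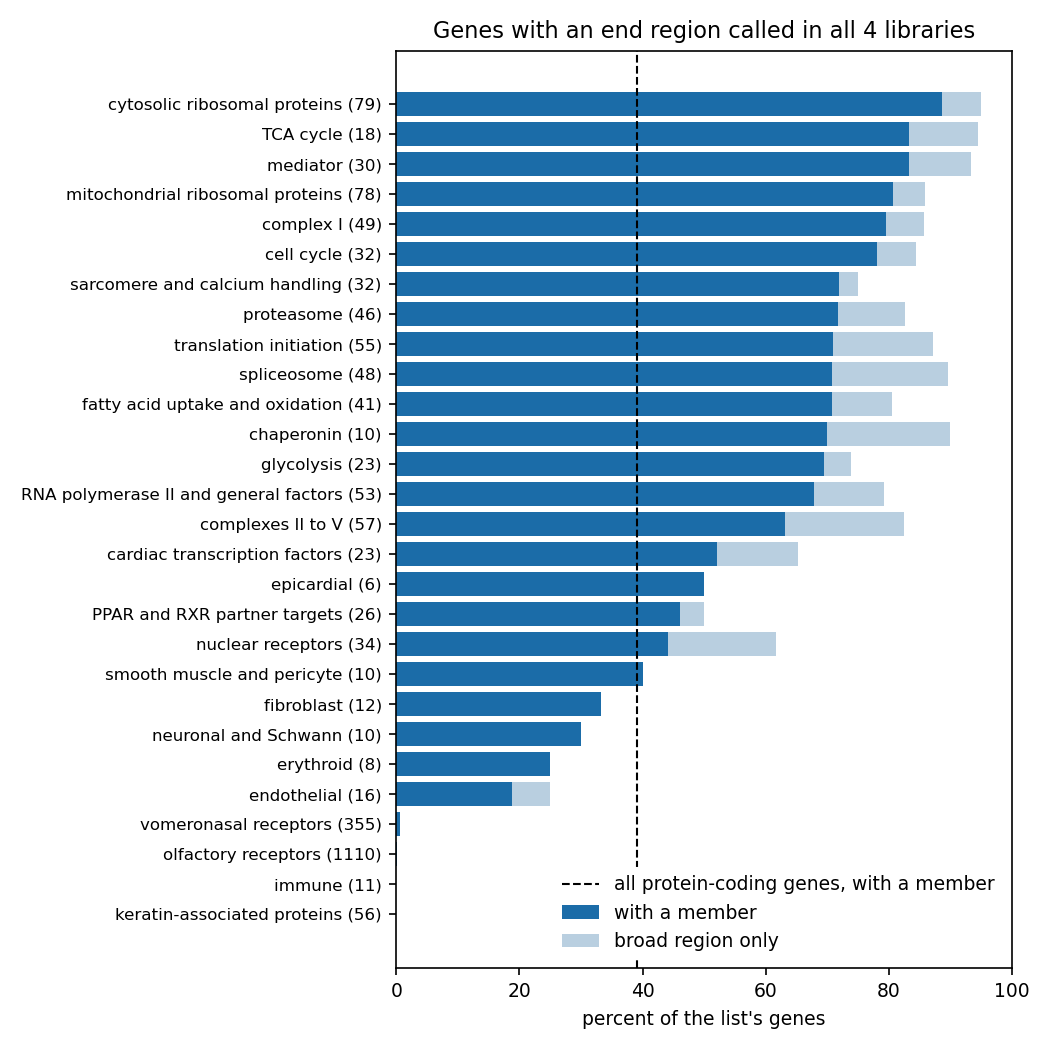
Share of each list's genes (x axis, percent, list size in brackets) with a member at an end (dark bars) and with only a broad region called in all 4 libraries (light bars). The dashed line marks the 39.1% of all protein-coding genes. Ribosomal, TCA cycle and mediator genes lie at the top, and immune markers and receptor genes of other tissues at the bottom, while the epicardial and the smooth muscle and pericyte markers, at 50% and 40%, lie above the line.

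Genes of the receptors deleted in the edKO hearts had different kinds of end region. Rxra had a member (chromosome 2, 27676730 to 27677529) with the authors' −log10 p at 10.7, 32.6, 25.8 and 6.28 and percentiles of 11.6, 50.4, 60.4 and 9.46. The 2 genotypes overlapped there. Rxrb had a broad region of 1098 bp, with −log10 p at 61.1, 49.4, 40.7 and 20.6. Rxrg, the third RXR gene, had a region in 1 library only. Since cells other than cardiomyocytes kept both genes and the deleted part is not given in the sources used here, these regions do not check the deletion.

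Nuclear receptor genes had members at 15 of 34 and the list of PPAR and RXR partner targets at 12 of 26, close to the share of all genes. Among the targets, Pdk4 (chromosome 6, 5495969 to 5496915) had the authors' −log10 p at 150, 177, 74.7 and 69.6 and percentiles of 97.3, 97.9, 90.5 and 95.2. Txnip, an inhibitor of glucose uptake, stood at 96.2, 93.5, 94.3 and 96.2, and the LXR target Mylip at 95.0, 89.9, 90.6 and 91.0. These 3 regions were among the strongest in hearts of both genotypes.

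Ranks were then compared between the genotypes. A member was counted where its percentiles in both edKO libraries lay on the same side of both WT libraries and the group means differed by at least 10 points. Of the 7743 members, 617 (7.97%) ranked lower in edKO, where 11.6% of all 16568 regions did, and 870 (11.2%) ranked higher, where 11.7% of all regions did. Of the 4172 short gene-body regions 688 (16.5%) ranked lower and 543 higher, and in short intergenic regions 19.3% and 11.1%. The members' share on the lower side was below that of both other classes, and their ranks spread less. The middle 50% of rank differences (edKO minus WT) ran from −4.39 to 6.04 points in members, from −8.69 to 6.81 in gene bodies and from −10.4 to 5.68 between genes. Members were also the stronger class, with median percentiles of 59.7 to 61.1 against 30.3 to 36.3 in both other classes. The classes were not matched for strength, and its part in these shares and spreads was not tested. With fewer libraries to keep apart the counts rose for all regions. Without edKO 1, 1288 members (15.8%) ranked lower beside 20.3% of all regions, and 1675 (20.5%) higher beside 21.1%. Without WT 2 and without edKO 2 the lower counts were 1058 and 1046, and without WT 1 the higher count was 1352. The shorter lists and lower values of both edKO libraries move with these counts, and their part was not tested.

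The members with the largest rank differences are given as values. Scd4, the stearoyl-CoA desaturase of the heart (chromosome 19, 44332575 to 44333550), had percentiles of 51.0, 62.0, 1.34 and 0.24 in WT 1, WT 2, edKO 1 and edKO 2 and −log10 p values of 29.9, 43.5, 5.19 and 3.75. The region shared by Ctu1 and Siglece stood at 56.0, 56.5, 10.2 and 8.34. Slc25a34, of the mitochondrial carrier family, stood at 75.5, 86.6, 55.0 and 17.2. In each of these 3 both edKO hearts lay below both WT hearts, by a wide margin in Scd4. Mylk3, the cardiac myosin light chain kinase, stood at 35.0, 65.9, 7.33 and 7.58. The region at the stop of Hmces stood at 48.7, 58.3, 23.6 and 1.44. The order was the reverse at 5 other members. Cds1 with Gm42134 stood at 7.01, 4.61, 47.9 and 60.1, and Ttll7, a tubulin-modifying enzyme, at 3.11, 11.3, 46.1 and 55.1. Pparg (chromosome 6, 115360753 to 115361447), an RXR partner, stood at 4.94, 9.13, 47.8 and 50.3. Of the 2 members at Nr1h2, the gene of LXR beta, one stood at 29.7, 23.0, 61.7 and 75.8, while the other, shared with Pold1, stood at 93.5, 92.6, 95.2 and 85.2 with the genotypes overlapping. Tead4 stood at 6.82, 33.0, 59.0 and 63.8.

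**Figure D4:**
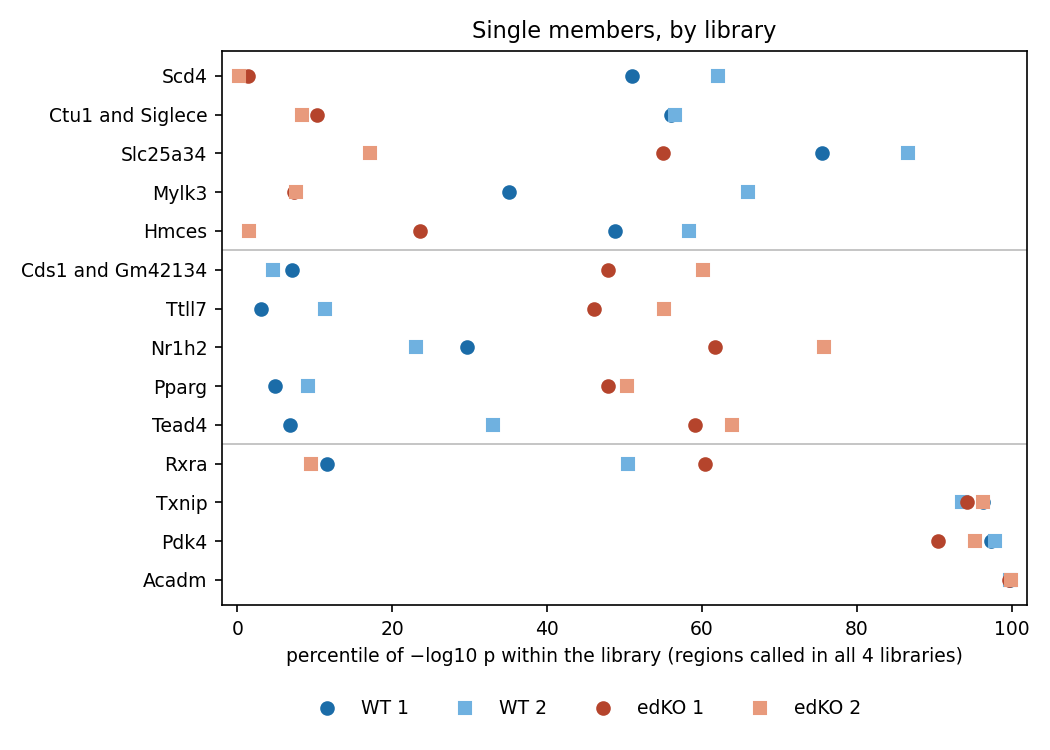
Percentile of −log10 p (x axis, among the regions called in all 4 libraries) of single members in each library. The upper 10 members were picked for their rank difference, so their separation is a description. Below them Rxra shows overlapping genotypes, and Txnip, Pdk4 and Acadm lie above 90 in all 4 hearts.

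Fatty acid genes had members on both sides, and the counts of this and the next lists stand beside the 11.6% of all regions that ranked lower and the 11.7% that ranked higher. Of 31 members of that list, 6 (19.4%) ranked lower in edKO, at Cpt1b with Chkb, Decr1, Acads, Etfb with Cldnd2, Mlycd and Slc25a20. Cpt1b, the muscle carnitine palmitoyltransferase of the outer mitochondrial membrane, stood at 91.0, 91.4, 66.3 and 77.3, and Slc25a20, the carnitine carrier of the inner membrane, at 80.2, 73.7, 58.9 and 51.0. Decr1, an enzyme for unsaturated fatty acids, stood at 44.7, 49.6, 7.49 and 34.3. Another 4 (12.9%) ranked higher, at Ppargc1a, Dgat2 and, with 2 members, Pnpla2, the triglyceride lipase gene. The median difference over the 31 was −1.66 points, beside 0.10 over all regions. Lower medians stood in other lists, such as −3.80 in the spliceosome, −3.62 in complexes II to V and −3.01 in complex I. Higher medians stood in the contractile list at 1.91 and in the glycolysis list at 2.06. Of 15 members of the PPAR and RXR target list 3 (20%) ranked lower, at Klf9, Acp2 with Nr1h3 and Abca1, and 2 (13.3%) higher, at Madd with Nr1h3 and at Dhrs3. Abca1, the cholesterol exporter driven by LXR, stood at 74.5, 68.5, 38.9 and 58.6.

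The contractile and cardiac factor lists were also mixed. Of 31 members of the contractile list 5 (16.1%) ranked lower and 6 (19.4%) higher, beside 7.97% and 11.2% of all members and 11.6% and 11.7% of all regions. The myosin heavy chain genes, picked after their values were seen, went opposite ways. Myh6, the adult form in mouse, stood at 90.0, 91.0, 69.9 and 76.9, and Myh7, the fetal form, at 53.0, 48.7, 64.8 and 74.9. Nppa, the atrial natriuretic peptide gene, stood at 30.4, 46.5, 65.0 and 55.3. Of 15 members of the cardiac factor list 2 (13.3%) ranked lower and 6 (40%) higher, and Irx3 had a member on each side. Of 18 nuclear receptor members 2 (11.1%) ranked lower and 6 (33.3%) higher.

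The lists of basic machinery and energy metabolism differed among themselves, beside the same 11.6% lower and 11.7% higher of all regions. Cytosolic ribosomal members had 10 of 74 (13.5%) ranked lower and 2 (2.70%) higher, spliceosome members 7 of 36 (19.4%) lower and 2 (5.56%) higher, and mediator members 5 of 26 (19.2%) lower and 0 higher. Translation initiation members had 2 of 44 (4.55%) lower and 5 (11.4%) higher, and glycolysis members 1 of 20 (5%) lower and 4 (20%) higher. In the others the counts under the rank rule were close to even. Mitochondrial ribosomal members had 6 lower and 4 higher of 67, complexes II to V 5 and 4 of 41, RNA polymerase II and its general factors 4 and 3 of 39, and the proteasome 3 and 3 of 33. Complex I had 1 and 1 of 41, the TCA cycle 1 and 1 of 15, the cell cycle 2 and 1 of 27, and the chaperonin 1 and 0 of 8. In the lists with near-even counts the median rank differences were all negative. They ran from −3.62 points in complexes II to V to −0.31 in the TCA cycle. The lists are small, and no test of a list was made.

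The promoter sequence of members, which the rule did not use, differed from that of promoters without a call. RefSeq windows of 300 bases, from 250 before to 50 from the start, were available for 21044 starts, of which 6816 met a member, 1607 a broad region called in all 4, and 9516 no region. The median GC content was 62.3% in windows with a member, 67.3% under broad regions and 48.7% without a call. The ratio of observed to expected CpG was 0.81, 0.89 and 0.22. Members and broad regions were thus both rich in CpG, and the windows without a call were poor in it.

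All 17 motifs were searched on both strands as exact letters. The NF-Y motif was the run CCAAT. For proteins of the SP and KLF families it was GGGCGG, and for the ETS family of promoter factors it was CCGGAAG. For NRF1, a regulator of mitochondrial genes, it was GCATGCGC, and for the zinc finger protein YY1 it was AAGATGG. The CREB and ATF site was searched as TGACGTCA, the E-box of helix-loop-helix proteins as CACGTG, and the TATA box of core promoters as TATAAA. The site of the cardiac GATA factors was searched as AGATAA, and the half-site that nuclear receptors share as AGGTCA. The core of a direct repeat with 1 base between the repeats, as bound by PPAR with RXR, was searched as GGTCANAGG, and the extended half-site of the estrogen-related receptors (ERR) as TCAAGGTCA. The MEF2 site was searched as TAAAAATAG, that of the TEAD factors of the Hippo pathway as GGAATG, and that of the AP-1 family as TGANTCA. Finally, the site of the zinc finger protein ZNF143 was searched as ACTACAATT and that of BANP, a factor of CpG islands, as CTCGCGAG. The half-site lies within the ERR motif and can overlap the direct repeat core and the E-box. A match is a description of the sequence and not of a bound factor, and base composition was not matched between classes.

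The SP and KLF motif was found in 71.9% of windows with a member, 80.3% under broad regions and 18.2% without a call, and in 46.7% of all windows. The ETS motif was found in 23.3% of windows with a member, 16.0% under broad regions, 2.74% without a call and 11.7% of all. The NF-Y motif differed little between the classes, with 41.2% in members, 35.3% under broad regions, 38.9% without a call and 38.5% of all. The motifs of NRF1, CREB and ATF, the E-box, YY1, ZNF143 and BANP were also more common in members than without a call. Their shares in members were 6.53%, 4.06%, 11.4%, 7.94%, 0.78% and 2.23%, and over all windows 3.54%, 2.26%, 7.91%, 6.28%, 0.51% and 1.25%.

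The TATA box, the motifs of GATA, AP-1 and TEAD factors and the half-site went the other way. The TATA box was found in 5.53% of windows with a member, 20.9% without a call and 12.7% of all. The GATA motif was found in 4.97% of windows with a member against 9.68% of all, the AP-1 motif in 3.58% against 7.04%, the TEAD motif in 11.0% against 13.5% and the MEF2 motif in 0.31% against 0.40%. The half-site was found in 10.7% of windows with a member, 19.1% without a call and 14.6% of all. For the direct repeat core the shares were 1.47% in members and 1.67% of all, and for the ERR motif 0.25% and 0.34%. The ERR and MEF2 motifs were found in only 17 and 21 windows with a member. No difference is read from the direct repeat core, ERR and MEF2 shares.

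**Figure D5:**
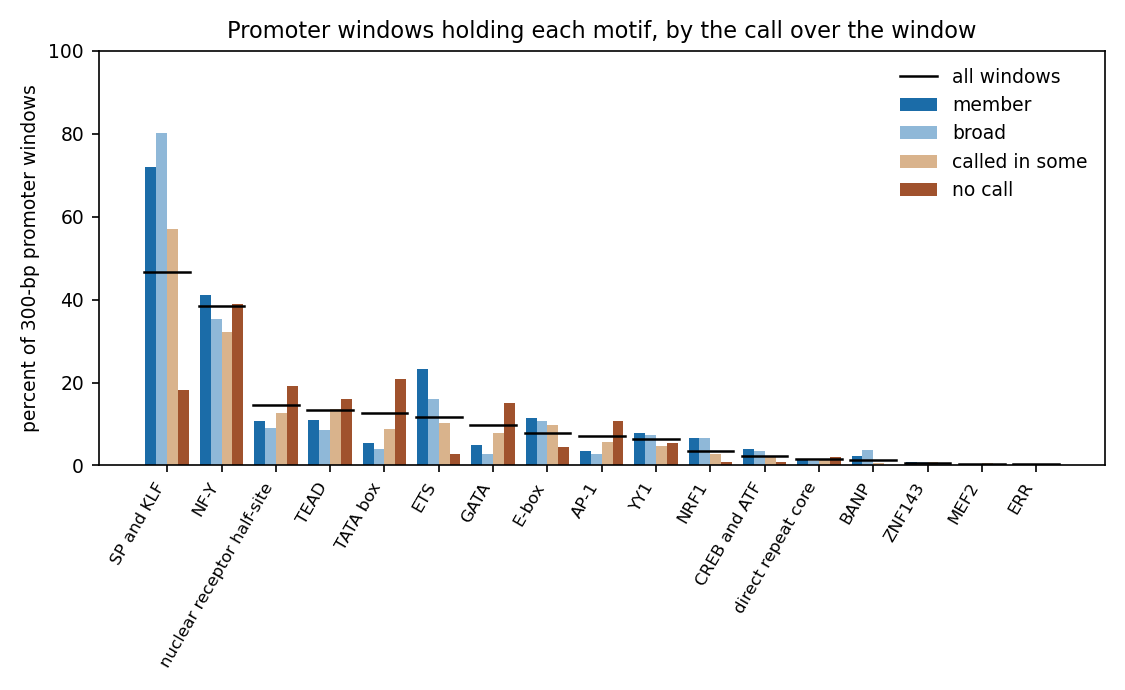
Share of promoter windows (y axis, percent) holding each motif, named by factor (x axis), for windows that met a member, a broad region called in all 4 libraries, a region called in some libraries or no region. Black lines mark the share of all 21044 windows. Windows with a member hold the SP and KLF motif in 71.9% and the TATA box in 5.53%, windows with no call in 18.2% and 20.9%.

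Members whose window held certain motifs were also stronger than other members. With the NF-Y motif the members' median percentile came to 73.2, 73.4, 73.1 and 71.4 in WT 1, WT 2, edKO 1 and edKO 2, and without it 57.9, 56.6, 58.2 and 60.1. So the NF-Y motif, whose share differed little between members and promoters without a call, went with a mean gap in strength of 14.6 points, positive in 4 of 4 libraries. For the SP and KLF motif the mean gap was 14.1 points, with 12.4 to 14.9 in the 4 libraries, for the BANP motif 11.4 (10.1 to 12.6) and for the ZNF143 motif, in only 46 members, 10.9 (7.20 to 15.8). The ETS motif had a mean gap of 2.82 points (1.03 to 4.02). The TATA box and the GATA motif had gaps of −9.35 and −9.97 points, with members holding them lower in 4 of 4 libraries. Windows with and without a motif were not matched for base composition or for other motifs.

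The position of matches within the windows of members differed by motif. The middle of the NF-Y motif matches lay at a median of −82.5 bp from the start, with quartiles of −150.5 and −43.25 bp. The SP and KLF motif lay at a median of −59 bp and the ETS motif at −33.5 bp, with quartiles of −97.25 and 0.5 bp for the latter. The half-site lay at a median of −120.5 bp. The median match to the ETS motif was thus nearer to the start than that of the other 3.

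Shares also differed between the gene groups. Over the 6158 genes with a member window, 1454 held the ETS motif, 4517 the SP and KLF motif, 697 the half-site and 363 the TATA box. Of 53 cytosolic ribosomal protein genes with such a window, 20 held the ETS motif, as did 18 of 52 mitochondrial ribosomal protein genes and 14 of 28 spliceosome genes. Of 20 cell cycle genes, 17 held the NF-Y motif, where 2629 of all 6158 did. In the contractile list, with 21 genes, none held the ETS motif, 4 held the SP and KLF motif and 6 held the TATA box, at Actc1, Myh6, Myl2, Nppa, Nppb and Pln. None of 20 fatty acid genes held the TATA box, beside 5.89% of the 6158 genes. The SP and KLF motif was held by 16 (80%, beside 73.4%) and the half-site by 4 (20%, beside 11.3%). The median GC content was 55.7% in the contractile, 58.0% in the cell cycle and 62.3% in the fatty acid list.

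Rank differences between the genotypes were set beside the motifs as a last description. Of members with the ETS motif, 9.89% ranked lower and 5.75% higher in edKO. With the NF-Y motif these shares were 8.21% and 5.99%, with the GATA motif 14.1% and 7.72%, and with the SP and KLF motif 6.04% and 10.8%. Of 664 members with the half-site, 9.64% ranked lower and 7.83% higher, and of 92 with the direct repeat core 11 ranked lower and 8 higher. Over all members the shares were 7.97% and 11.2%, but these include members without a promoter window, in which no motif was searched. Members at a gene start had 7.58% and 10.6%. The groups overlap, since many windows hold several motifs, and the part of base composition was not tested.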

How the data were processed

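ATAC-seq was available as 1 peak list per heart, 2 WT and 2 edKO. Groups and replicate numbers came from the sample titles. The authors called peaks per library with MACS2, per the submitters' processing notes, which also name CASAVA, bcl2fastq, cutadapt, Bowtie2 and SAMtools and the builds mm10 and GRCm38. Versions, the shift for Tn5 cuts and duplicate handling are not stated in these sources. A peak of the deposited lists carries, from the authors, a fold enrichment (a ratio to the local background), a −log10 p, a −log10 q-value, a score and the summit. The score and the q-value were not used. No read depth was used, and the lists held 27142 to 38809 peaks. A missing call means only that a site stayed below the threshold of that library.

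Peaks on chromosomes 1 to 19 and X were merged at an overlap of 1 bp (python 3.11.15, pandas 2.3.3, numpy 2.4.6, scipy 1.17.1), and a region's value in a library was that of its strongest peak. Gene positions, promoter windows and strand came from RefSeq (GRCm38.p6). Within-library gaps were tested by exact sign flips and genotype differences by exact permutation, two-sided, on 4 libraries, and the procedures were tested on simulated data. Regions and genes are not replicates and were not tested. The members, lists and motifs were chosen with earlier results of these data known. Named were the 10 strongest members, up to 4 genes per list, the 5 largest rank differences in each direction, fatty acid and RXR target members that met the rank rule, the RXR genes and the members at the width limit. Exceptions are marked. Some genes that the rule named are not reported here. Alternatives covered the peak threshold, list length, overlap, width, distance and each library left out.

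The main tests did not pair the hearts by replicate number. The deviations of WT 1 and edKO 1 from their group means correlated at −0.02 over the 16568 regions called in all 4 libraries. With 2 hearts a group this value cannot settle whether hearts of the same number were handled together.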

Additional observations from a re-analysis of the deposited data

How the results depend on the processing

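The number of members (7743) and of genes with a member (8453) stayed within 1.5 times of these values under a −log10 p of at least 5 or 10, lists of equal length, an overlap of 50 bp, distances of 500 and 2000 bp and windows around summits. With a width limit of 750 bp they were 4894 and 5344. Leaving out each library gave 8066 to 8720 members and 8753 to 9304 genes. The strength gap stayed positive under every one of these settings and with fold enrichment, and was lowest with the 750 bp limit, at 19.2 points to gene bodies and 20.7 to intergenic regions. Leaving out each library gave 25.9 to 30.4 and 28.4 to 32.5, and −6.00 to −6.33 bp for the summits. The genotype difference in the gap ran from 0.36 to 3.04 points over libraries left out, and with the replicate block it was 1.82 points with an exact p = 1. For members ranked lower the count was 180 with a difference of at least 20 points, a limit chosen after seeing the data, and 921 to 1288 with a library left out. For members ranked higher it was 267 and 1256 to 1675, and 573 with the width limit of 750 bp. Among list counts 23 of the alternatives moved by over 1.5 times, mostly under the 750 bp limit or a −log10 p of at least 10, and 289 did not. The cause was not tested. With 2 hearts a group no genotype test can pass 0.05, and without counts no fold between hearts can be given at a region.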
